A study of Mus musculus with 12 samples.

Results

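The genes described here are those of the protein kinase C family that were named for study in mouse Sertoli cells, with a substrate and an anchor of these kinases. They were chosen by name, not by their values: Prkca, Prkcd, Prkce, Prkci, Prkcz, Prkd1, Prkd3 and Pkn2, which encode kinases, Marcks, which encodes a substrate, and Rack1 (also written Gnb2l1), which encodes an anchor. All 10 were found among the 49585 genes of the sorted-cell count table and among the 21823 genes of the cultured-cell table.

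Protein kinase C enzymes are serine and threonine kinases that were first known as the receptors of diacylglycerol, the lipid that phospholipase C makes when a hormone receptor is active. Conventional members such as PKCα need calcium and diacylglycerol, a second class such as PKCδ and PKCε needs diacylglycerol only, and atypical members such as PKCι and PKCζ need neither and act with the polarity proteins PAR3 and PAR6. Before any of them can respond, the kinase PDK1 and the mTOR complex 2 phosphorylate many of these enzymes at sites that make them mature and stable. In Sertoli cells, the nurse cells of the seminiferous tubule, such kinases are studied for their part in actin, junctions and the polarity of the epithelium.

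RNA of 12 samples in 4 groups of 3 was sequenced. Sorted Sertoli cells came from testes of control mice (AmhCre; Ptbp1 flox/wt; mTmG;wt) and of Ptbp1 conditional knockout mice, called cKO here (AmhCre; Ptbp1 flox/flox; mTmG;wt), so both groups carried the Cre, which the Amh promoter drives in Sertoli cells, the mTmG reporter and at least 1 floxed allele of Ptbp1. Cultured Sertoli cells were wild-type cells in primary culture, and they gave an input of total RNA and an RNA fraction recovered by immunoprecipitation of PTBP1, a protein that binds pyrimidine-rich RNA and regulates splicing. The series title names PKCα and mTOR, so Prkca and the mTOR genes below were subjects of the study and not independent choices. No animal age and no immunoprecipitate with a control antibody stand in the labels used here. Whether replicates stand for separate animals or cultures is not stated in the labels, and p-values therefore reflect only the spread among these libraries, possibly a technical one. Each cultured library has a pair of unexplained numbers in its name, and libraries of a group may share a culture.

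Libraries held 11980474 to 13750181 counts in the sorted groups, 12894035 to 15315115 in the inputs and 26725003 to 28796396 in the immunoprecipitates. Ptbp1 itself was 247 ± 5.29 CPM in control and 7.78 ± 0.184 CPM in cKO cells (mean ± SD, n = 3 libraries each), 31.7-fold lower (edgeR's quasi-likelihood test, adjusted p = 4.57e-10). On the second principal component, with 18.2% of the variance, the third library of each sorted group was separate from its other libraries. In the cultured libraries the second component, with 1.13% of the variance, also set the third input (10.9) and the third immunoprecipitate (14) apart. The other cultured libraries scored -8.51 to -2.52. Of 10 Sertoli cell markers 8 were lower in the cKO, where 21.4% of all genes tested were lower. The 10 summed to 19960 to 20670 CPM in control and 13910 to 14760 CPM in cKO libraries. Of 7 germ cell markers tested 5 were higher, where 17.6% of all genes tested were higher. Germ cell markers summed to 224 to 337 CPM against 401 to 440 CPM, while Prm1 was at 0 in every library. Leydig cell markers summed to 26.2 to 30.1 CPM in control and 37.9 to 47.8 CPM in cKO libraries, with 1 of 3 tested higher. The summed levels of myoid, macrophage, endothelial and red blood cell markers overlapped between the groups. Among them, 1 of 3 tested myoid markers was higher and 1 of 5 red blood cell markers lower. In the cultured inputs the 10 Sertoli markers summed to 13910 to 15220 CPM, led by Clu, Vim and Cldn11, with Sox9 at 422 to 449 CPM, while Amh was at 15.4 to 19.0 CPM and Rhox5 at or below 0.544 CPM. The 4 peritubular myoid markers there summed to 2065 to 2103 CPM, led by Acta2 and Tagln. In bulk libraries like these, fewer cells of a type and less RNA per cell cannot be told apart, and the part of the other cell types in the results below was not tested.

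Levels of different genes were compared as CPM per kilobase of the exon length that the sorted table gives, which was also used for the cultured libraries. In sorted control cells the order was Marcks (90.1 ± 16.2 CPM per kb, mean ± SD, n = 3), Rack1 (76.6 ± 6.07), Prkd1, Prkci, Pkn2, Prkce, Prkd3, Prkca, Prkcz and Prkcd. Neighbours in this order did not overlap in their 3 libraries, except Marcks with Rack1 and Prkca with Prkcz. Rack1's level may be understated on this scale, since the listed exon length covers 83.9% of its gene span, against 1.23% for Prkd1 and 2.19% for Prkca.

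Among the 8 kinases alone, Prkd1 (protein kinase D1) made up 34.0% of the summed CPM per kb of control cells, Prkci (PKCι) 22.3%, Pkn2 17.1% and Prkce (PKCε) 14.9%. Prkca (PKCα) made up 1.53%, Prkcz (PKCζ) 0.950% and Prkcd (PKCδ) 0.341%. In cKO cells the leading kinase was Prkci with 31.3%, followed by Pkn2 with 26.5% and Prkd1 with 20.6%, although the levels of Prkci and Pkn2, and of Pkn2 and Prkd1, overlapped between libraries. The cultured input also had Prkci (32.0%) and Pkn2 (22.1%) at the head, then Prkca with 13.3%. In the PTBP1 immunoprecipitate Prkci had 33.1% and Prkca 23.9%. No neighbours in the order of the 10 genes overlapped in either cultured group. Values from sorted and cultured cells stand side by side only, since the RNA selection, the kit and the table differ between them.

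**Figure D1:**
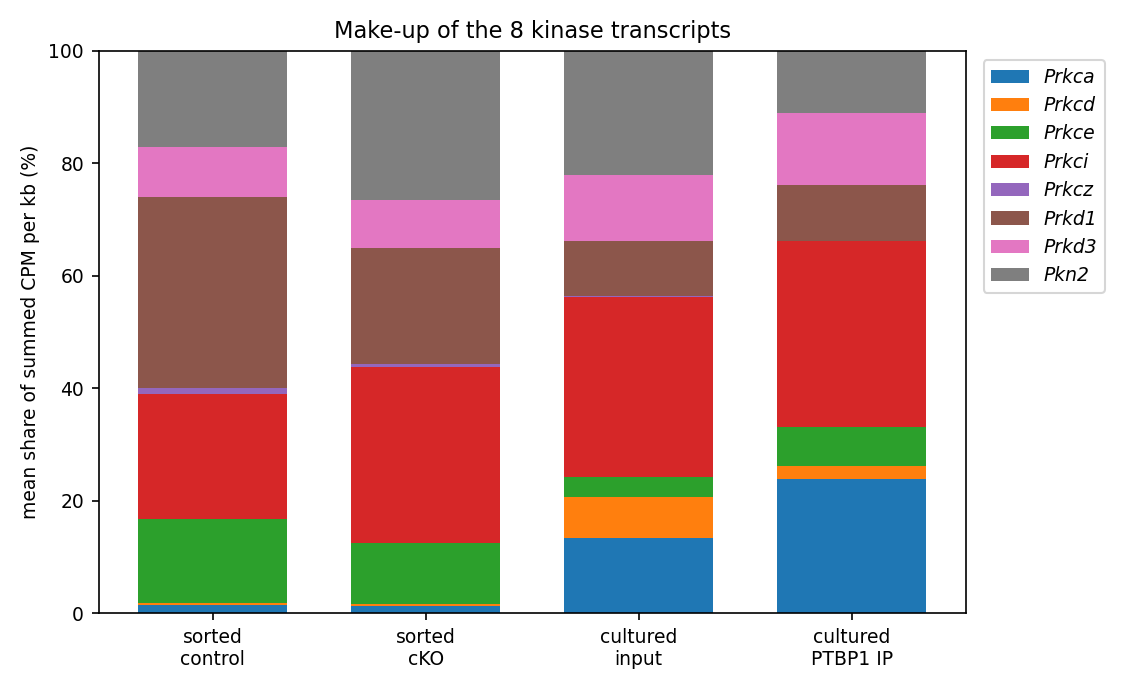
Stacked bars give the mean share (%) of each of the 8 kinase genes in their summed CPM per kilobase, in 4 groups of 3 libraries. Prkd1 is the largest block in sorted control cells at 34.0%, and Prkca is at most 1.53% in sorted cells but 13.3% in the cultured input and 23.9% in the immunoprecipitate.

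RefSeq (GRCm38.p6) gives a promoter for 8 of the 10 genes, and those of the 2 kinases that rose in the cKO and of the 2 genes with the largest falls, Prkd1 and Rack1, are shown here, so that the letters can be read beside the changes described below. Each runs 5′ to 3′ on the strand of the gene, from 150 bases before the RefSeq transcript start to base 20 of the transcript. Capitals mark the GC box GGGCGG (or CCGCCC, the same box on the other strand) and the E-box CACGTG, and in Rack1 the run of pyrimidines that begins at the start.
Prkci, chr3:30995621-30995790, plus strand: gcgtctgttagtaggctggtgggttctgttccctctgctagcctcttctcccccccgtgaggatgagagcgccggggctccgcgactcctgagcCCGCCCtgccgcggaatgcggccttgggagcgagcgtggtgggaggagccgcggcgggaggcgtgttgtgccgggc
Pkn2, chr3:142881985-142882154, minus strand: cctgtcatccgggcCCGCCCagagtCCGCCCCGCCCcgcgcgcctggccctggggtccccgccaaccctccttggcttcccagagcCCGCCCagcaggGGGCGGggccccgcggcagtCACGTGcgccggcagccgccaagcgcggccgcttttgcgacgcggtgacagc
Prkd1, chr12:50649230-50649399, minus strand: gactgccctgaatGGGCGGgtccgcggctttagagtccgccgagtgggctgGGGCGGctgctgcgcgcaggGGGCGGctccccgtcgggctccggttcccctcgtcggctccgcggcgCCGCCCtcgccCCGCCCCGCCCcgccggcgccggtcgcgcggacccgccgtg
Rack1, chr11:48800210-48800379, plus strand: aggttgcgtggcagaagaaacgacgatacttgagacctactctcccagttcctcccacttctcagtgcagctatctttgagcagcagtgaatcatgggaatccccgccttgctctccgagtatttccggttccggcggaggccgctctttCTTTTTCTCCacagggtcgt

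The 3 kinase promoters were rich in G and C (70.6% in Prkci, 78.8% in Pkn2 and 81.8% in Prkd1) and all held GC boxes, which 35.7% of 32851 RefSeq promoters hold on either strand of their full 300-base window. A GC box was found in any listed promoter for 7 of the 8 genes with a promoter, all but Rack1. This counts genes, while the 35.7% counts promoters. Prkcz, Prkcd and Prkd3 have several listed promoters, not all of which hold the box. Pkn2 also held the E-box, which reads the same on both strands and was found in 7.15% of promoters. The Rack1 transcript begins with a run of 10 pyrimidines, led by a C. Transcripts of ribosomal proteins are known for such a start, called a terminal oligopyrimidine tract, through which mTOR acts on their translation. A C at the start followed by 4 or more pyrimidines was found in 2.51% of promoters and in none of the other 7 genes with a promoter. Overlapping matches were counted each, and a match is a run of letters, not evidence of binding.

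The comparison of cKO with control cells asked how transcripts of these kinases, their substrate and their anchor differ in Sertoli cells that lose Ptbp1. Prkci (PKCι) and Pkn2 rose, and Prkd1 (protein kinase D1), Prkce (PKCε) and Rack1 fell. Prkca, the kinase that the series title names, did not pass the test. All 10 genes passed the filter on low counts, and 5 were called at an adjusted p under 0.05, where 39.0% of the 13405 genes tested were called. Of these 5, 2 were higher and 3 lower, where 17.6% of all genes were higher and 21.4% lower. At 2-fold or more 0 of the 10 were higher and 0 lower, against 4.10% and 2.31% of all genes. The groups did not overlap for 5 of the 10, against 49.7% of all genes tested, so these shares lie near the background. The median log2 fold was -0.21 for the 10 genes and 0.00 for all genes.

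**Figure D2:**
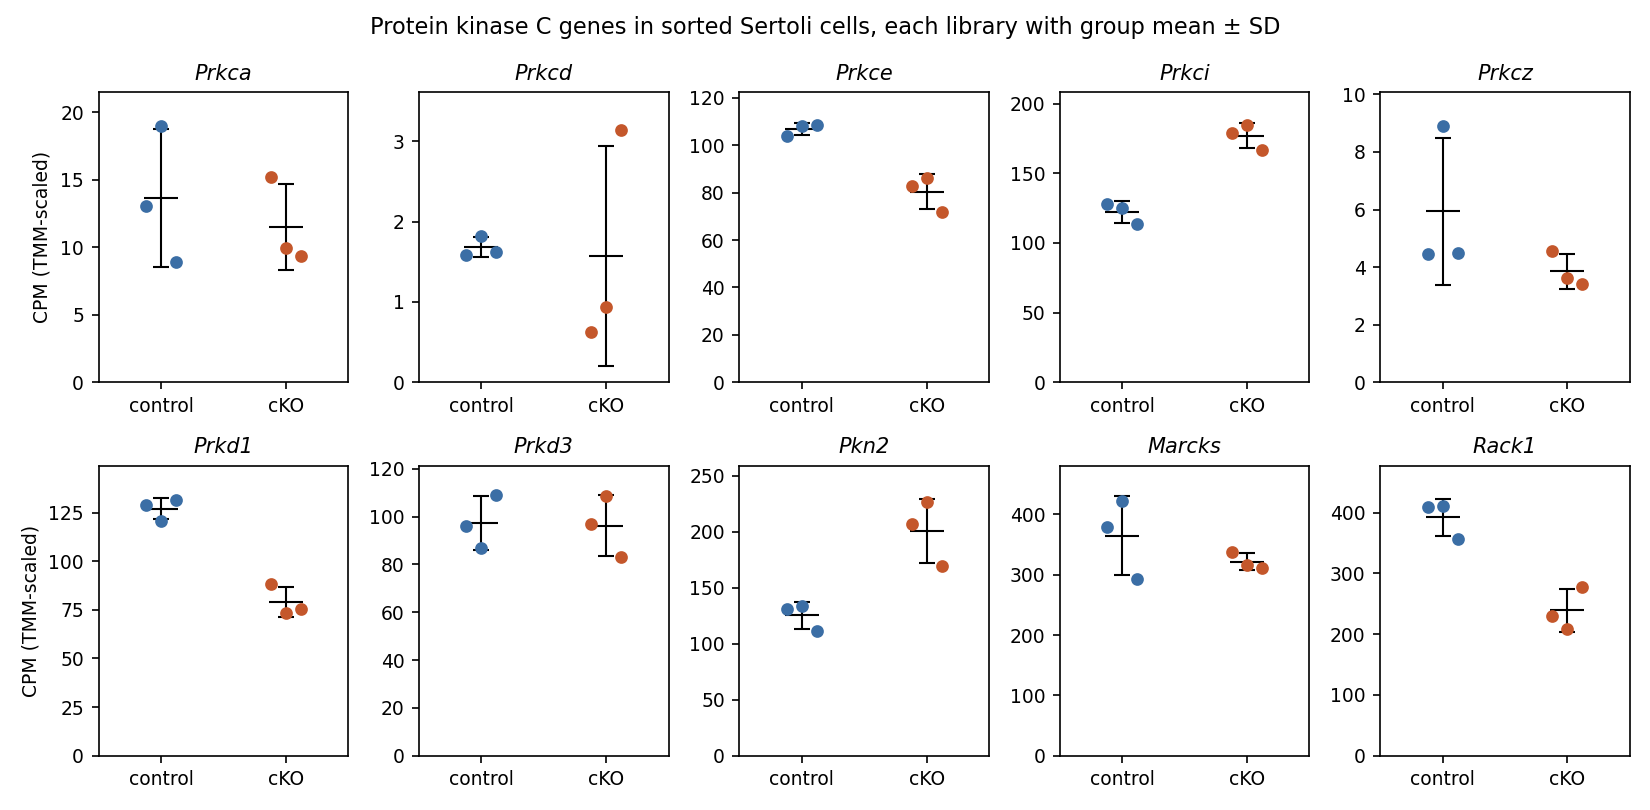
Each panel shows 1 gene in sorted cells, with the CPM on the TMM-scaled library size of each library as points and the group mean ± SD as bars, for 3 control and 3 cKO libraries. Prkci and Pkn2 are higher and Prkce, Prkd1 and Rack1 lower in all 3 cKO libraries than in any control library, while the groups overlap in the other 5 panels.

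Prkca, the conventional kinase PKCα, lies on chromosome 11 of mm10 from 107933387 to 108343928. It had 13.0, 19.0 and 8.87 CPM in the control libraries and 15.2, 9.95 and 9.35 CPM in the cKO libraries. The groups overlapped, and the highest and the lowest of the 6 values were both control libraries. The log2 fold was -0.24 ± 0.27 (SE; 95% interval -0.84 to 0.36; adjusted p = 0.516), so a fall of up to 0.84 and a rise of up to 0.36 on the log2 scale both lie within the interval. Without the second control library the log2 fold was 0.076, the opposite direction.

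Prkcd (chromosome 14, 30595356 to 30626210) and Prkce (chromosome 17, 86167785 to 86657919) encode PKCδ and PKCε, which respond to diacylglycerol without calcium. Prkce had 103.9, 108 and 108.7 CPM in control and 82.9, 86.2 and 72.0 CPM in cKO libraries. All 3 cKO libraries lay below the control range. Prkce fell by 0.41 ± 0.11 on the log2 scale (SE; adjusted p = 0.00950), but the adjusted p was 0.0520 when the second control library was left out and 0.0838 when scaled by library size alone (range over 11 alternatives 0.00601 to 0.0838).

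Prkcd had few reads, with 20, 22 and 20 counts in the control libraries and 9, 12 and 46 in the cKO libraries. The cKO libraries lay on both sides of the controls, and the third held most of the group's counts. Of 5 red blood cell markers, the 4 globin genes peaked in the same library (Hbb-bs at 23.75 CPM, where the first and second cKO libraries had 0.841 and 2.27 CPM), but Alas2 was lowest there (8.19 CPM, where they had 20.8 and 16.4 CPM). All 5 endothelial markers were at their highest cKO level in it, such as Cdh5 at 4.85 CPM where the others had 0.701 and 1.18 CPM. The summed levels were 21.5 to 55.1 CPM in cKO and 33.8 to 62.0 CPM in control libraries for red blood cells, and 5.88 to 21.0 and 7.33 to 11.9 CPM for endothelium; the part of these cells in the Prkcd value was not tested. The log2 fold of Prkcd was -0.09 ± 0.56 (SE; adjusted p = 0.915), and without the third cKO library it was -1.10 (adjusted p = 0.120).

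Prkci (chromosome 3, 30995747 to 31052959) and Prkcz (chromosome 4, 155260129 to 155361361) encode the atypical kinases of the PAR polarity complex. Prkci had 128, 125 and 113 CPM in control and 179, 185 and 167 CPM in cKO libraries. The lowest cKO value was above the highest control value. Prkci rose by 0.53 ± 0.10 on the log2 scale (SE; adjusted p = 0.00192) and was called in all 11 alternatives.

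Prkcz had 4.45, 8.89 and 4.48 CPM in control and 4.55, 3.60 and 3.41 CPM in cKO libraries. The second control library held about as many counts (107) as the other control libraries together (56 and 55), and the remaining controls overlapped the cKO range. The log2 fold was -0.62 ± 0.32 (SE; 95% interval -1.33 to 0.09; adjusted p = 0.154), and without that library it was -0.20 (adjusted p = 0.678). RefSeq lists a pseudogene copy, Prkcz2, and how the counting treated reads shared with it is not given in the sources used here, so the Prkcz values are uncertain.

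Prkd1 (chromosome 12, 50341231 to 50649223) and Prkd3 (chromosome 17, 78949405 to 79020816) encode protein kinases D, which protein kinase C activates and which act at the Golgi and on histone deacetylases. Prkd1 had 129, 121 and 131 CPM in control and 88.1, 73.6 and 75.6 CPM in cKO libraries. The highest cKO value lay well below the lowest control value. Prkd1 fell by 0.68 ± 0.11 on the log2 scale (SE; adjusted p = 6.13e-04), and was called in all 11 alternatives.

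Its relative Prkd3 had 95.9, 86.7 and 109 CPM in control and 97.0, 109 and 82.9 CPM in cKO libraries. The 2 groups covered nearly the same range. The log2 fold of Prkd3 was -0.02 ± 0.13 (SE; 95% interval -0.30 to 0.26; adjusted p = 0.934). This value was positive under 6 of the 11 alternatives, up to 0.16 without the third library of both groups.

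Pkn2 (chromosome 3, 142790902 to 142882004) encodes a kinase that shares the catalytic domain of protein kinase C but has a regulatory region of its own. It had 131, 134 and 112 CPM in control and 207, 227 and 169 CPM in cKO libraries. The third library was the lowest in each group, and the groups did not overlap. Pkn2 rose by 0.68 ± 0.13 on the log2 scale (SE; adjusted p = 0.00174), which is 1.60-fold, and was called in all 11 alternatives.

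Marcks (chromosome 10, 37133375 to 37138920) encodes a substrate that binds actin and the lipid PIP2 at the plasma membrane until protein kinase C phosphorylates it. It had 380, 422 and 293 CPM in control and 338, 317 and 311 CPM in cKO libraries. The third control library was the lowest of all 6 and the other 2 controls were the highest. The log2 fold was -0.18 ± 0.13 (SE; 95% interval -0.47 to 0.11; adjusted p = 0.307). Leaving out the third control library gave -0.33 (adjusted p = 0.0332), and leaving out that of the cKO too gave -0.30 (adjusted p = 0.00704; range over 11 alternatives 0.00704 to 0.963).

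Rack1 (chromosome 11, 48800332 to 48806434) encodes a protein of the small ribosomal subunit that also anchors active protein kinase C. It had 409, 411 and 356 CPM in control and 230, 209 and 278 CPM in cKO libraries. The groups did not overlap, although the third library of each group lay nearest to the other group. Rack1 fell by 0.71 ± 0.13 on the log2 scale (SE; adjusted p = 0.00112), the largest change in size of the 10 in this fit, and was called in all 11 alternatives. In the authors' deposited table the signed fold was -1.595 for Rack1, -1.559 for Prkd1, 1.649 for Pkn2 and 1.491 for Prkci, with adjusted p of 8.34e-05, 1.77e-04, 8.82e-05 and 3.65e-04. For Prkce, the authors' deposited table gives a signed fold of -1.291 with an adjusted p of 0.0864, above the threshold that it passed here.

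The comparison of the PTBP1 immunoprecipitate with its input asked which of these transcripts were recovered with the protein. With TMM scaling, Marcks, Prkce and Prkca were more than 2-fold higher in the immunoprecipitate than in the input. Prkd3, Prkci and Prkd1 were higher by less than 1.3-fold. Prkcd, Prkcz, Rack1 and Pkn2 were lower. All 10 genes passed the filter and were called, where 87.8% of the 12854 genes tested were. Of the 10, 6 were higher and 4 lower, where 43.0% of all genes were higher and 44.8% lower. At 2-fold or more, 3 were higher and 2 lower, against 20.7% and 27.0% of all genes. The groups did not overlap for any of the 10, against 87.9% of all genes tested. The median log2 fold was 0.25 for the 10 genes and -0.03 for all genes. With no control antibody among the samples, recovery with PTBP1 and recovery by other means cannot be told apart.

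**Figure D3:**
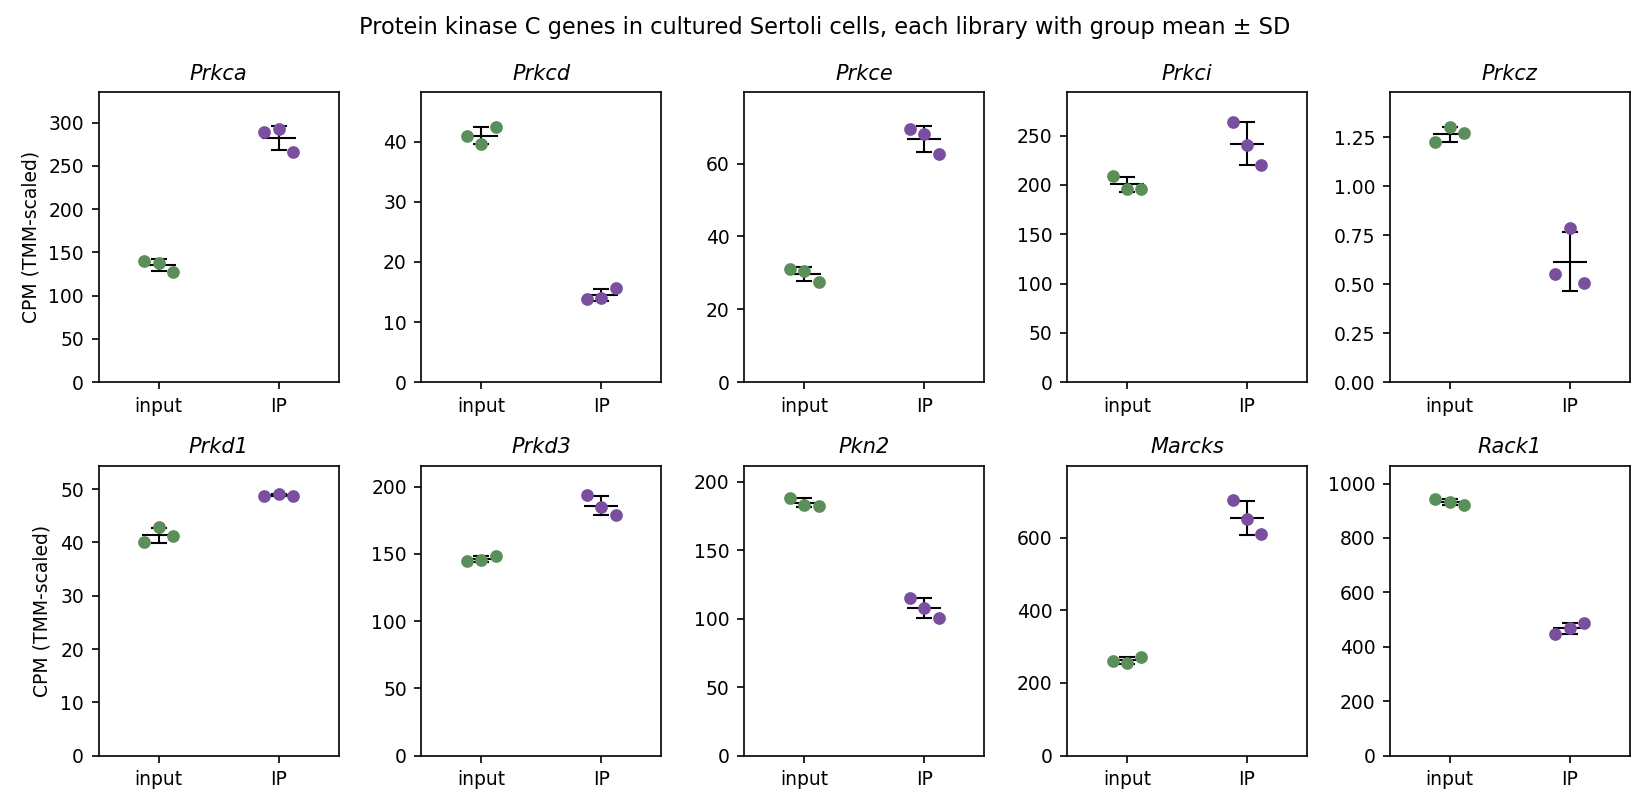
Each panel shows 1 gene in cultured cells, with the CPM on the TMM-scaled library size of each library as points and the group mean ± SD as bars, for 3 input and 3 immunoprecipitate (IP) libraries. Prkca, Prkce and Marcks are more than 2-fold higher in the immunoprecipitates, Prkcd and Prkcz more than 2-fold lower, and no panel has overlapping groups.

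Marcks had the highest log2 fold of the 10 over input, with 261, 254 and 272 CPM in the inputs and 704, 651 and 609 CPM in the immunoprecipitates. Prkce had 31.2, 30.4 and 27.5 CPM against 69.4, 68.0 and 62.7 CPM. Prkca had 140, 138 and 127 CPM against 289, 292 and 266 CPM. All 3 genes kept a wide gap between the groups. The log2 fold over input was 1.32 ± 0.05 for Marcks (SE; adjusted p = 7.50e-15), 1.17 ± 0.06 for Prkce (adjusted p = 1.63e-12) and 1.06 ± 0.05 for Prkca (adjusted p = 1.45e-13).

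Prkd3 had 144, 146 and 148 CPM in the inputs and 194, 185 and 179 CPM in the immunoprecipitates. Prkci had 209.5, 196 and 196 CPM against 264, 241 and 220 CPM. Prkd1 had 40.0, 42.8 and 41.1 CPM against 48.8, 49.0 and 48.7 CPM. The groups of these 3 kinases were separate but close, with log2 folds of 0.35 ± 0.04, 0.27 ± 0.06 and 0.24 ± 0.06 (SE; adjusted p = 6.70e-07, 3.47e-04 and 5.54e-04). These directions depend on the scaling, since library size alone, under which the all-gene median shifted by -0.36, gave -0.02, -0.10 and -0.12 (adjusted p = 0.704, 0.122 and 0.0447). In the immunoprecipitates, Prkca, Prkce and Marcks stayed higher and the 4 lower genes stayed lower under that scaling. Whether a gene passed 2-fold was less stable. Over the 11 alternatives the lowest log2 folds were 0.70 for Prkca, 0.81 for Prkce and 0.96 for Marcks, all under 2-fold. Those of Rack1 and Pkn2 were -1.36 and -1.14, which is beyond 2-fold. The highest log2 fold of Prkcz was -0.91, which is under 2-fold in size.

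Prkcd, whose cultured inputs held 41.0, 39.6 and 42.4 CPM, was at 13.9, 14.1 and 15.7 CPM in the immunoprecipitates. Rack1 had 944, 930 and 921 CPM against 448, 468 and 488 CPM. Pkn2 had 188, 183 and 182 CPM against 115, 108 and 101 CPM. The immunoprecipitates lay below the inputs throughout, with log2 folds of -1.49 ± 0.07, -0.99 ± 0.04 and -0.77 ± 0.05 (SE; adjusted p = 1.27e-13, 2.74e-14 and 2.29e-11). Prkcz rested on 18 to 22 counts per input and 12 to 19 per immunoprecipitate and had a log2 fold of -1.04 ± 0.27 (SE; adjusted p = 0.00160). The 4 myoid markers were also all lower in the immunoprecipitates, where they summed to 889 to 1022 CPM. Of 9 Sertoli markers tested, 6 were higher and 3 lower, beside 43.0% and 44.8% of all genes. Vim, for example, had 2802 to 2850 CPM in the inputs and 1061 to 1118 CPM in the immunoprecipitates. The part of either cell type in the values of the lower genes was not tested.

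**Figure D4:**
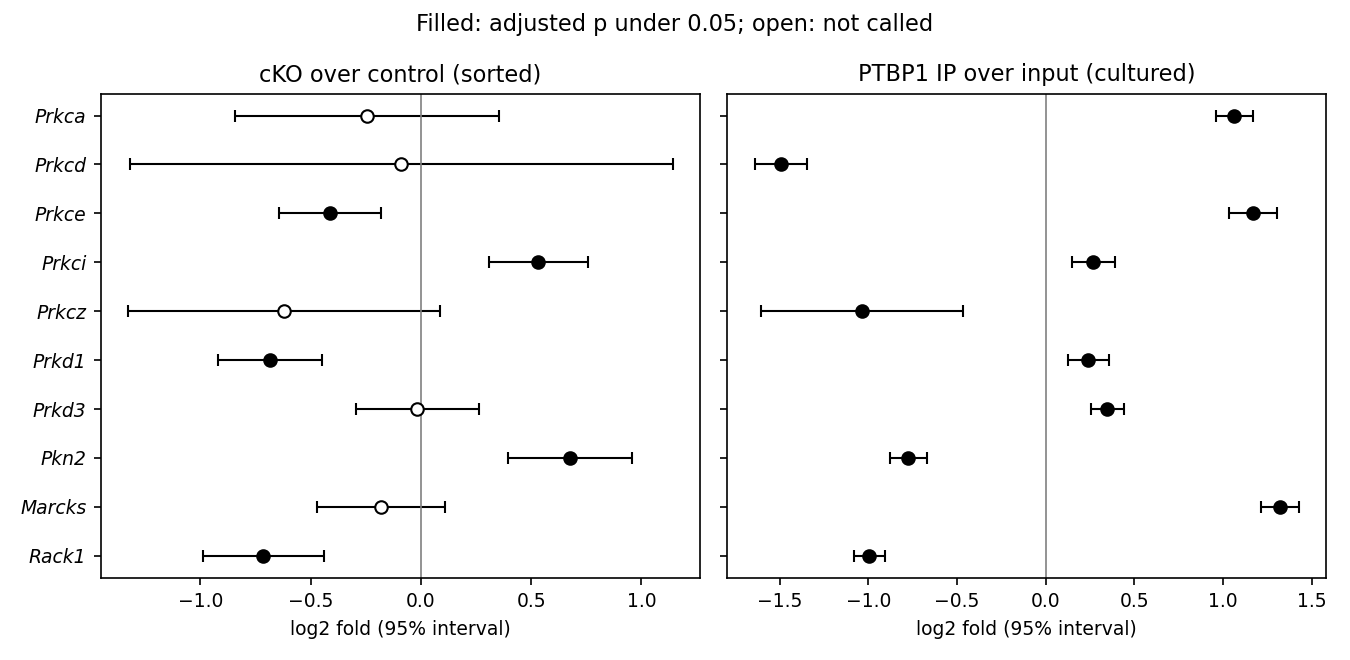
Points give the log2 fold of each of the 10 genes and bars its 95% interval, for cKO over control in sorted cells and for PTBP1 immunoprecipitate over input in cultured cells, filled where the adjusted p was under 0.05. Prkca, Prkce and Marcks lie at 1.06, 1.17 and 1.32 over input but at -0.24, -0.41 and -0.18 in the cKO, where only Prkce of the 3 is filled.

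Set side by side, the comparisons share no libraries. Of the 3 genes at least 2-fold higher in the immunoprecipitate with TMM scaling, Prkce fell in the cKO, while Prkca and Marcks did not pass the test. Of the 4 genes that were lower in the immunoprecipitate, Pkn2 rose in the cKO, Rack1 fell, and Prkcd and Prkcz did not pass the test. With TMM scaling, Prkci was higher in both comparisons, and Prkd1 was higher in the immunoprecipitate by 0.24 and fell in the cKO by 0.68 on the log2 scale. With library size alone, Prkci had -0.10 and Prkd1 -0.12 over input. Whether the directions correspond between the comparisons was not tested.

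The genes whose levels followed Prkca most closely in both tables were Gmeb1, Zfp280b, Bcl2l11, Tmem64 and Trim41. They were the first 5 of 11141 genes by the smaller of 2 Pearson correlations of log2 CPM, 1 over the 6 sorted and 1 over the 6 cultured libraries. Gmeb1, which encodes a DNA-binding protein, had r = 0.967 and r = 0.991, and Trim41, the last of the 5, had r = 0.931 and r = 0.976. The 6 points of each table are 2 groups of 3 libraries that all genes share, so these values describe likeness only.

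The genes that turn the kinases on and off were described from 7 lists of 76 genes. In the cKO, 6 genes of the other kinases of the family were tested, with a median log2 fold of -0.23. Prkcb, a conventional kinase, was at 20.3 ± 0.478 CPM in control and 17.1 ± 5.78 CPM in cKO cells (SD, n = 3; adjusted p = 0.413).

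Enzymes that make or remove diacylglycerol are read here against the 17.6% of all genes that were higher and the 21.4% that were lower in the cKO. Of 10 tested phospholipase C genes, which make it, 0 were higher and 2 lower in edgeR's quasi-likelihood test: Plcb3 by a log2 fold of -0.71 (adjusted p = 0.00150) and Plcd3 by -0.45 (adjusted p = 0.00895). The count of higher genes was not stable: 1 or 2 were higher under 7 of the 11 alternatives, with 1 by DESeq2, 1 when the first control, the third control or the third cKO library was left out, 2 higher and 1 lower with library size alone, and 2 higher and 3 lower when the third library was left out of each group. Of 6 tested diacylglycerol kinases, which remove it, Dgkd was lower (-0.47, adjusted p = 0.00776) and Dgke higher (0.33, adjusted p = 0.0427). The call of Plcd3 was lost without the first (adjusted p = 0.0671) or second control library (0.0556) and with library size alone (0.0641). That of Dgkd was lost with library size alone (0.0524). That of Dgke was lost without any single control library or the first or second cKO library (0.0501 to 0.157), and with no filter on low counts (0.0776). The list medians were -0.15 and 0.17.

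Genes for the priming and maturation of protein kinase C gave 1 higher and 4 lower of 12 tested in the cKO, where 17.6% of all genes were higher and 21.4% lower, with a median log2 fold of -0.04. Hsp90aa1, a chaperone of kinases, rose from 227 ± 23.8 to 461 ± 96.9 CPM (SD, n = 3; log2 fold 1.03, adjusted p = 3.60e-04). Its co-chaperone gene Cdc37 fell by 0.54 on the log2 scale. Hsp90ab1, the other HSP90 gene listed, had more reads and did not pass the test. It was at 1983 ± 128 CPM in control and 1804 ± 169 CPM in cKO cells (log2 fold -0.14, adjusted p = 0.377). Of mTOR complex 2, the subunit genes Mlst8 and Prr5 fell by 0.76 and 0.97 (adjusted p = 7.83e-04 and 8.03e-04). Mapkap1, the gene of another listed subunit, did not pass the test (log2 fold 0.09, adjusted p = 0.499). Mtor itself was at 250 ± 32.9 CPM in control and 220 ± 28.2 CPM in cKO cells (log2 fold -0.19, adjusted p = 0.279). For Rictor, the defining subunit of complex 2, it was 0.26 (adjusted p = 0.264), and 0.45 (adjusted p = 0.0152) once the third cKO library was left out. Pdpk1, which encodes PDK1, had a log2 fold of 0.06 (adjusted p = 0.687).

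The partners and substrates are read against the same shares. Of 9 tested partners of the atypical kinases 0 were higher (1 with no filter on low counts) and 2 lower (3 without the third cKO library and 4 without that of both groups): Llgl1, a polarity protein, by a log2 fold of -0.67 and Sqstm1, a scaffold, by -0.62 (adjusted p = 6.68e-04 and 0.00209). Of 12 other substrates and anchors tested, Marcksl1, the relative of Marcks, fell from 1522 ± 66.4 to 922 ± 191 CPM (SD, n = 3; log2 fold -0.72, adjusted p = 0.00202), and RefSeq lists pseudogene copies of it, which makes its values uncertain. The adducin genes of the membrane skeleton differed, with Add1 lower (-0.55, adjusted p = 0.00175) and Add3 higher (0.37, adjusted p = 0.0136). Of 8 substrates of protein kinase D, Pi4kb, a Golgi lipid kinase, was lower (-0.71, adjusted p = 7.50e-04), Ssh1, a phosphatase of cofilin, was lower (-0.38, adjusted p = 0.0457), and Cert1, a ceramide carrier, was higher (0.58, adjusted p = 0.00960). Without the third library of both groups 4 of these 8 were lower. Add3 lost its call without the first control (adjusted p = 0.0538), the first cKO (0.0505) or the second cKO library (0.0632), and Ssh1 without the first or second control, the second cKO or the third cKO library (0.0565 to 0.243). The medians of these 3 lists were -0.19, -0.08 and -0.30, beside 0.00 for all genes. Scaling by library size alone turned the medians of the phospholipase C, priming and substrate lists positive (0.02, 0.13 and 0.10).

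**Figure D5:**
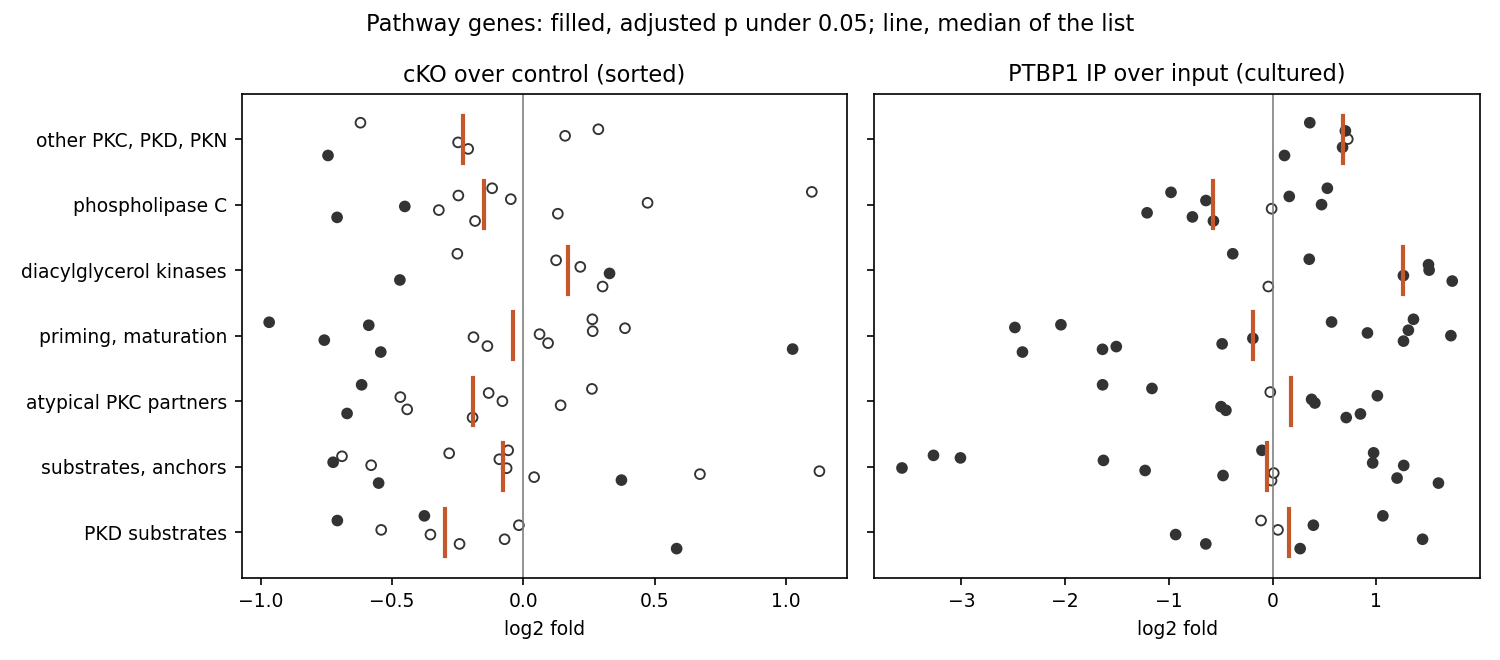
Points give the log2 fold of each tested gene of 7 lists, filled where the adjusted p was under 0.05, and lines the list medians, for both comparisons. In the cKO most points are open and medians lie between -0.30 and 0.17, while over input most points are filled and the diacylglycerol kinases have the highest median, 1.26.

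In the immunoprecipitate over input, the diacylglycerol kinases had 5 higher and 1 lower of 7 tested, where 43.0% of all genes were higher and 44.8% lower, with a median log2 fold of 1.26 (4 higher and 2 lower, median 0.90, with library size alone). Dgkd led with 77.6 ± 3.70 CPM in the inputs and 258 ± 7.55 CPM in the immunoprecipitates (SD, n = 3; log2 fold 1.73, adjusted p = 6.00e-17), followed by Dgkh (1.51) and Dgke (1.26). The phospholipase C genes had 3 higher and 5 lower of 9, with a median of -0.57, and the lower ones included Plcb4 (-1.21), Plcb3 (-0.77) and Plce1 (-0.64). With library size alone 0 of them were higher and 7 lower, with a median of -0.94. Of 5 other kinases of the family 4 were higher, among them Prkch (0.70), Pkn3 (0.68) and Prkd2 (0.36), but library size alone gave 1 higher and 1 lower, and Prkd2 then had -0.01 and Prkch an adjusted p of 0.165. The median of these kinases was 0.68.

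The priming genes divided in the immunoprecipitate, 6 higher and 7 lower of 13, beside the same 43.0% and 44.8% of all genes. Pdpk1 went from 95.9 ± 2.57 to 316 ± 10.1 CPM (SD, n = 3; log2 fold 1.72, adjusted p = 2.65e-17), and Rictor had 1.36 (adjusted p = 3.99e-15). Mtor was lower, by a log2 fold of -0.19 (adjusted p = 0.00235). Cdc37 (-2.41) and Hsp90ab1 (-1.51), which encode the kinase chaperones, were lower as well. Of 10 atypical kinase partners 5 were higher, such as Llgl1 (0.85), and 4 lower, such as Wwc1 (-1.64) and Sqstm1 (-1.16). Of 14 other substrates and anchors 5 were higher, led by Add1 (1.60), and 7 lower, led by Cavin3 (-3.57) and Ppp1r14b (-3.27). Of 8 protein kinase D substrates 4 were higher, including Hdac4 (1.45) and Ssh1 (1.06), and 2 lower, including Hdac5 (-0.93). The medians of these 4 lists were -0.19, 0.18, -0.06 and 0.16, and library size alone turned the second and the last to -0.19 and -0.21.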

How the data were processed

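The authors deposited 1 table of the sorted and 1 of the cultured libraries, and the deposited values used are raw counts of reads for each gene. The sorted table also holds exon lengths, positions (starts counted from 0, given here from 1) and the authors' own test, which the authors deposited as a p-value per gene and a score, the signed fold, in which a fall is minus the inverse ratio. HTSeq, STAR, DESeq2, cutadapt, Bowtie2 2.3.5.1, bcl2fastq 2.20 and mm10 are named in the submitters' processing notes without their roles, and whether counting used strand is not given in the sources used here. The 84 other columns of per-library values were not used. Columns of the sorted libraries show only their group, and libraries are counted in the order of the table.

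For each comparison only its 6 libraries were fitted, with edgeR 4.0.16 in R 4.3.3 (filterByExpr, TMM, robust quasi-likelihood fit, two-sided test, Benjamini-Hochberg adjustment over all genes tested, threshold 0.05). The procedure was also run on simulated counts in which only a small part of the genes differed, equally up and down. That setting is unlike these data, so it cannot test the scaling, and no result here rests on it. CPM are counts scaled by the TMM library size, and their error is the SD of 3 libraries. Log2 CPM for correlations used a prior count of 2. Replicates differed by more than sampling noise (smallest chi-square over its degrees of freedom 2.13), so none was a copy of another library's counts. This cannot tell libraries made from 1 culture or animal from separate ones. In both cultured groups the first and second libraries were the closest pair (2.13 in the inputs and 3.41 in the immunoprecipitates). Alternatives were median-ratio size factors, library size alone, DESeq2 1.42.0, no filter, each library left out, the last library of both sorted groups left out, a replicate block and a 2-fold threshold. Named were the 10 genes, Ptbp1, Mtor, Rictor, Pdpk1, up to 3 genes per list and comparison with the smallest p past the threshold, and the 5 genes most like Prkca. Some genes that this rule names are not reported here. Prkcb, Cdc37, Hsp90ab1 and Mapkap1 in the cKO, and the markers, were named after their values were seen. The genes, lists and tests were chosen with earlier results of these data known. Promoters are RefSeq's.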

Additional observations from a re-analysis of the deposited data

How the results depend on the processing

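In the cKO, Prkci, Prkd1, Pkn2 and Rack1 kept their direction and call in all 11 alternatives. Prkca gave 0.076 without the second control library (range with 1 library left out -0.50 to 0.076). Prkcd gave 0.090 with library size alone and ran from -1.10 to 0.29 when 1 library was left out, with 0.29 and 0.17 without the first or second cKO library. Prkd3 gave 0.0070 with median-ratio size factors and with DESeq2, 0.15 with library size alone, 0.061 and 0.078 without the third control or cKO library (range -0.11 to 0.078), and 0.16 without both. Pdpk1 gave -0.0081 without the third control library (range -0.0081 to 0.12). Library size alone left 1863 genes lower. Over input, library size alone gave -0.10 for Prkci, -0.12 for Prkd1, -0.018 for Prkd3 and -0.0058 for Prkd2, and left 3 of the 10 genes higher. A threshold of 2-fold as well left 2664 genes higher and 3471 lower, and of the 10 genes 3 and 2. Calls of Plcd3, Dgkd, Dgke, Add3 and Ssh1 were lost under 1 to 6 of 11 alternatives. The cause of these changes was not tested. Same-numbered inputs and immunoprecipitates had correlations of 0.116, 0.0403 and 0.175 between their deviations. Differently numbered ones had -0.154 to 0.061, and for each input the same-numbered value was the highest. The labels do not state pairs, so the cultured fit took none, although these values leave pairing possible. As an alternative, a replicate block gave 5628 genes higher and 5834 lower, with 6 and 4 of the 10. No paired analysis of the sorted libraries was run, because their columns carry no replicate number. A block by the order of their columns was not tested. Prkcd in sorted cells and Prkcz in cultured cells rest on few counts, which limits both.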
